A study of Mus musculus with 12 samples.

Results

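NOD dendritic cells were compared with NOD B cells across autosomal genes, 3 libraries against 3, from a series of 12 libraries. Members were chosen by chromosome alone: of 28188 gene symbols in the count table, 26979 were placed on an autosome, and 15001 of these passed the filter on low counts. NOD is an inbred mouse strain that develops autoimmune diabetes spontaneously, and both populations were isolated from the spleen of 12-week-old mice without treatment. The other 6 libraries are B cells and dendritic cells of NOD.Idd2 mice, which the series title describes as carrying the Idd2 locus of B10 origin, and they serve here as a separate set of the same cell type contrast. The labels name no isolation method, no sex and no pooling, and do not say whether libraries came from separate animals, so the p-values reflect sample-to-sample spread, which may be technical.

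B cells carry a membrane immunoglobulin as antigen receptor, recirculate through follicles and can become antibody-secreting cells. Conventional dendritic cells of the spleen arise from Flt3-dependent precursors, sample antigen through many innate receptors and present it to T cells. Both are professional antigen-presenting cells with MHC class II on their surface. Type 1 conventional dendritic cells are known for presenting antigen from dead cells to CD8 T cells, and type 2 for priming CD4 T cells. In bulk RNA, fewer cells of a type and less RNA per cell cannot be told apart.

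Library totals were 40631787 to 44632276 counts for B cells and 24627488 to 26811142 for dendritic cells. Counts were scaled jointly over the 6 libraries by TMM and are given per 1e6 counts (CPM). Pairs of values are B cells first and dendritic cells second, as a mean or as mean ± SD over n = 3 libraries. A log2 fold change is dendritic cells minus B cells with its standard error (SE). "Higher" and "lower" are said of dendritic cells relative to B cells, and only of genes called at an adjusted p under 0.05 by edgeR's quasi-likelihood test. The cell types also differed in sex. Xist lay between 1965 and 2073 CPM in B cells and at most at 0.154 CPM in dendritic cells, whereas Y-linked Ddx3y was at 0 counts in all B cell libraries and between 259 and 308 CPM in dendritic cells. Cell type and sex therefore cannot be told apart, and genes on X and Y were left out.

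B cell replicate 3 stood apart from replicates 1 and 2. Among 11709 autosomal genes with a mean of at least 1 CPM in B cells, 296 differed by over 2-fold between replicate 3 and the mean of the others, 251 of them lower in replicate 3. Between replicates 1 and 2, 14 genes differed as much. The 296 included 116 processed pseudogenes and 43 of 77 tested cytosolic ribosomal protein genes. In NOD.Idd2 B cells, replicate 3 differed likewise in 284 genes, of which 240 were also among those of NOD. These genes are called discordant below, and results that rest on them are given with and without replicate 3.

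**Figure D1:**
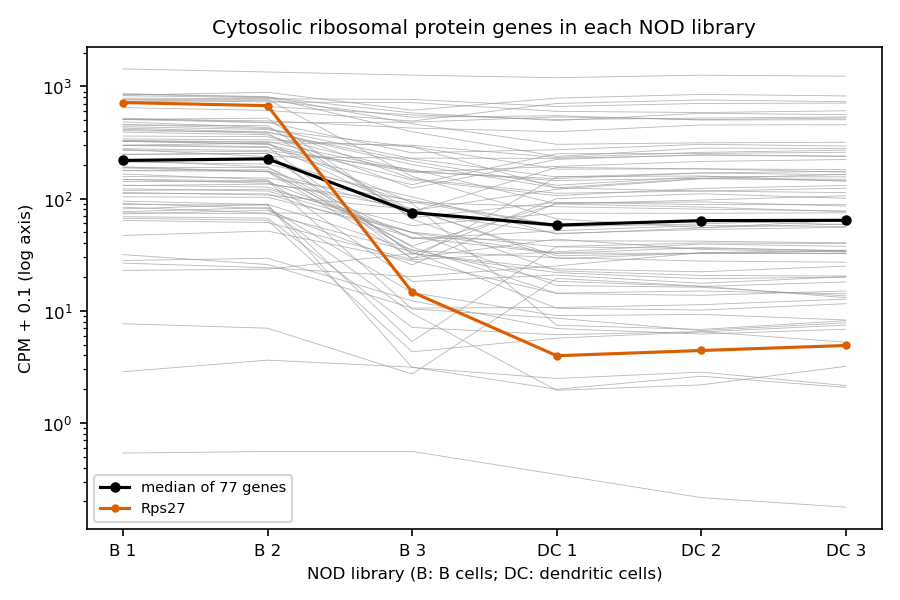
CPM (log axis, 0.1 added) of the 77 tested cytosolic ribosomal protein genes in the 6 NOD libraries, 1 grey line per gene, with the median gene in black and Rps27 in orange. The median gene was at 219 and 226 CPM in B cell replicates 1 and 2, at 74.9 in replicate 3 and at 57.9 to 63.9 in dendritic cells.

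Of the 15001 autosomal genes tested, 5765 (38.4%) were higher and 5531 (36.9%) lower in dendritic cells, 75.3% in all. With a minimum of 4-fold, 2328 (15.5%) were higher and 1336 (8.91%) lower, 24.4% in all. The median log2 fold change over all tested genes was -0.004. Counts on the lists below are to be read beside these values over all genes tested. A gene near 0 in one cell type passed the filter on low counts only through the other, so counts on lists of such genes describe them and do not test a direction. At 16-fold or more, 1325 genes were higher and 657 lower. Counts were 0 over the B cell libraries for 169 of the 4-fold higher genes, and over the dendritic cell libraries for 94 of the 4-fold lower genes. Of the 4-fold genes, the libraries of the cell types did not overlap for 2328 of 2328 higher and 1321 of 1336 lower genes. These genes were called from the same 6 libraries, so their separation is a description and no added support. The share over all genes tested was not counted. Of the lower genes 211 were segments of antigen receptor genes and 100 were discordant, against 0 and 6 of the higher genes. With B cell replicate 3 as the only B cell library, 3418 of the 3618 4-fold genes still tested were at least 4-fold in the same direction.

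**Figure D2:**
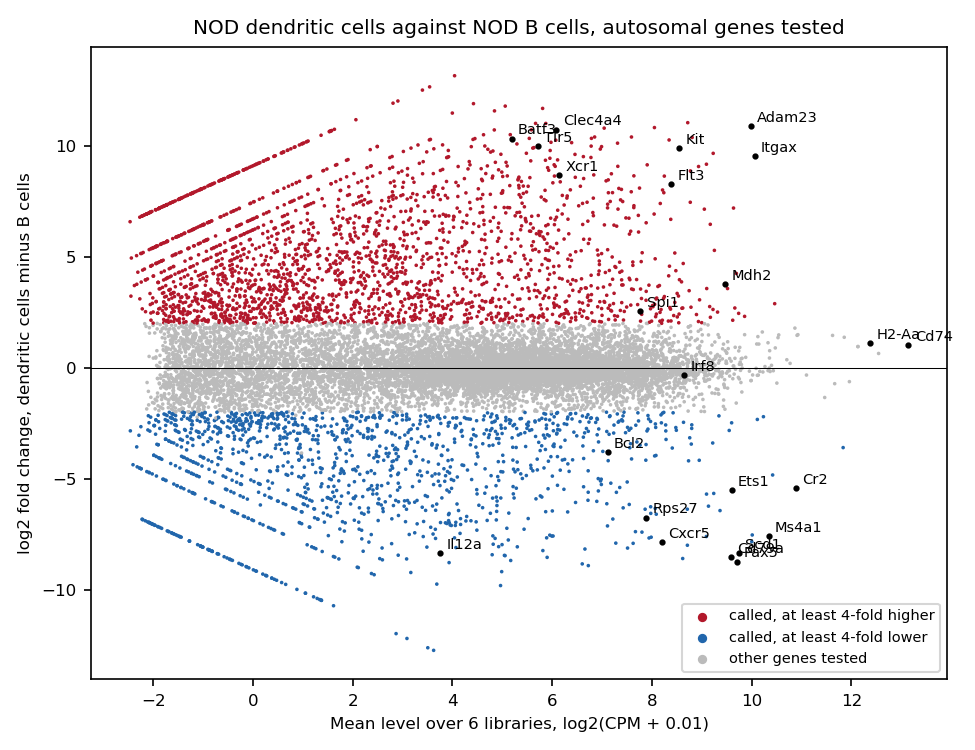
Each of the 15001 autosomal genes tested by its mean level over the 6 NOD libraries, as log2(CPM + 0.01), and its log2 fold change, dendritic cells minus B cells. Red points are the 2328 genes called at 4-fold or more higher, blue the 1336 lower, grey all others. Itgax, Adam23 and Kit lie at the top right, Pax5, Cd79a and Scd1 at the bottom right, and H2-Aa and Cd74 near the middle at high level.

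The contrast was the same in direction in the NOD.Idd2 libraries for nearly all of these genes. Of 3497 4-fold genes of NOD that were tested there, 3495 had the same direction and 3474 were also called, where 76.6% of all autosomal genes tested were called. Across 14702 genes the log2 fold changes of the strains correlated at r = 0.98, a description over genes, which are not independent replicates. In NOD.Idd2 the cell types differed in sex in the same way. Xist was at 1720.1 CPM in B cells and 0.114 CPM in dendritic cells, and Ddx3y at 0 and 268 CPM. The repeat of the contrast in NOD.Idd2 therefore cannot tell cell type and sex apart either. It also includes a shallow library, dendritic cell replicate 3, at 8663421 counts against 22769062 and 30337812 in replicates 1 and 2. The test of the difference between strains called 17 of 16009 autosomal genes (0.106%). That count fell to 9 without NOD B cell replicate 1, to 11 without either NOD.Idd2 B cell replicate 1 or 2, and to 9, 7 and 10 without NOD.Idd2 dendritic cell replicates 1, 2 and 3.

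**Figure D3:**
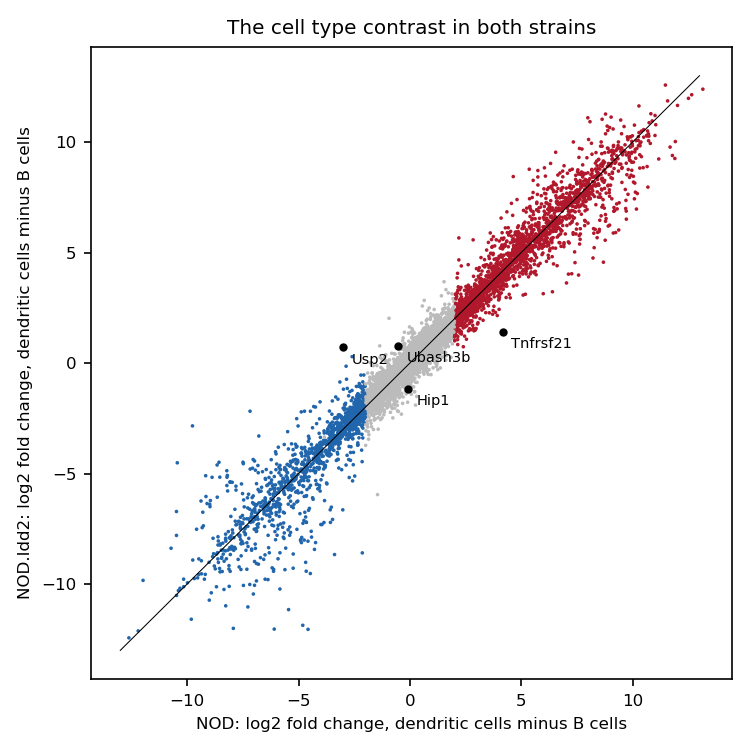
log2 fold change of each of 14702 autosomal genes in NOD (x axis) and NOD.Idd2 (y axis), dendritic cells minus B cells, coloured by the 4-fold call in NOD (red higher, blue lower, grey other). Points follow the line of equal change, and Tnfrsf21, Usp2, Ubash3b and Hip1, whose contrast differed between the strains by the test, lie off it.

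Promoters of a few members of the gene lists are shown because their windows hold letters bound by regulators named below. Each runs from 250 bases before to 50 after the annotated start, from RefSeq on GRCm38.p6, which is not the NOD genome. Capitals mark a match on either strand. Cd22 (chr7:30878979-30879278, minus strand) holds TCCC and GGGA spaced by 2 bases, a core of the sites of the B lineage factor Ebf1, starting 49 bases before the start of transcription. Vpreb3 (chr10:75948050-75948349, plus strand) holds the octamer ATTTGCAT, bound by the Oct factors and their B cell coactivator Pou2af1, 45 bases before it. In Cd209a (chr8:3748935-3749234, minus strand) GGAA and GAAA spaced by 2 bases, the composite letters for an ETS factor such as PU.1 with an IRF, begins 9 bases before it. In Ifih1 (chr2:62646206-62646505, minus strand) the interferon response letters, GAAA and GAAA spaced by 2 bases, begin 32 bases after it.
Cd22: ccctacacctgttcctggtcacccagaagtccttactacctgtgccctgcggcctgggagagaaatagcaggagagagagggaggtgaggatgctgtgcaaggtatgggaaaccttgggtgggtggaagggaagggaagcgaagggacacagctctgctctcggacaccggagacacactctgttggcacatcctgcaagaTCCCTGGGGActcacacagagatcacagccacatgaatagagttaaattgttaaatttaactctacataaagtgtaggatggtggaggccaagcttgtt
Vpreb3: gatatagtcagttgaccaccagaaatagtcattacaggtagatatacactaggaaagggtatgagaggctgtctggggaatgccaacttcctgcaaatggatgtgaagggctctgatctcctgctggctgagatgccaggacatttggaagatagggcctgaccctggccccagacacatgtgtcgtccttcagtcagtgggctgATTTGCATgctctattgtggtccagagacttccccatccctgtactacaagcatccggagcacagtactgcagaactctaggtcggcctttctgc
Cd209a: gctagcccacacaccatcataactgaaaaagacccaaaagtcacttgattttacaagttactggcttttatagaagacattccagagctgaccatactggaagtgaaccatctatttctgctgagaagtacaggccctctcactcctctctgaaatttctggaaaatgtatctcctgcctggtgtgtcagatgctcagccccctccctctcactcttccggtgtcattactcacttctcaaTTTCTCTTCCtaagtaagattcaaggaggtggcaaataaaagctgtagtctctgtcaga
Ifih1: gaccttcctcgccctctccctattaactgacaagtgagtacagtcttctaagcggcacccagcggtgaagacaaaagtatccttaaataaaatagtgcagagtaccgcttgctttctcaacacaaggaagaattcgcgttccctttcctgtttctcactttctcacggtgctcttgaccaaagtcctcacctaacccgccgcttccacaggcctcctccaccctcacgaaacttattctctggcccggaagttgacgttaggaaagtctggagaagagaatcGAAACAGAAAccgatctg

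The Ebf1 letters stood in 20 of 876 promoters (2.28%) of genes lower by 4-fold or more and 23 of 2020 (1.14%) of those higher. The 13024 promoters available for tested autosomal genes held them in 1.01%. Promoters were available for 662 of the 1336 lower genes, 1529 of the 2328 higher and 10228 of the 15001 tested. Some genes had more than 1 promoter, so the shares are of promoters and cover only a part of each set. The interferon response letters were in 4.70% of promoters of higher genes, 2.97% of lower and 3.35% of all. The composite letters were at 3.12%, 3.08% and 2.50% in that order, and the octamer at 1.24%, 1.48% and 1.34%. The PU.1 letters AGGAAGT stood in 11.5% of promoters of higher and 13.4% of lower genes, against 9.64% of all. The kappaB letters, GGG and TTTCC spaced by 2 bases, were at 2.48%, 1.71% and 1.77%, the E-box CAGCTG at 18.4%, 20.8% and 15.3%, the cyclic AMP response letters TGACGTCA at 0.941%, 2.40% and 2.93%, and the CEBP letters TTGCGCAA at 0.248%, 0% and 0.276%. Both strands were searched. The composite and interferon response letters can overlap in 1 promoter. These shares are descriptions without a test.

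The B cell identity list was lower throughout, in all 18 tested genes in dendritic cells, 17 of these by 4-fold or more, with a median log2 fold change of -7.47. Cd79a, the signalling chain of the B cell receptor, was at 1582, 1611 and 1406 CPM in the B cell libraries and 3.17, 1.93 and 7.36 CPM in the dendritic cell libraries (log2 -8.52, SE 0.40, adjusted p = 2.07e-07). Ms4a1, which encodes CD20, was at 2691, 2536 and 2539 CPM in the B cell libraries and 9.10, 8.22 and 22.6 CPM in the dendritic cell libraries (log2 -7.60, SE 0.40, adjusted p = 4.31e-07). In both genes every B cell library lay above every dendritic cell library, and the highest dendritic cell value was in replicate 3. The complement receptor gene Cr2 was at 3713 ± 359 and 86.6 ± 16.7 CPM, and the IgM Fc receptor Fcmr at 784 ± 39.1 and 2.02 ± 1.24 CPM. The inhibitory receptor genes Cd22 (1984 and 429.8) and Cd72 (356 and 95.5) differed least, with log2 fold changes of -2.21 and -1.90.

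Of 12 immunoglobulin constant regions, 11 were tested and all were lower by 4-fold or more. Ighd, the constant region of IgD, was at 2045 ± 143 and 8.95 ± 2.35 CPM and Iglc2 of the lambda light chain at 405 ± 118 and 2.42 ± 1.03 CPM. Ighm, the constant region of IgM, was at 6545, 6169.8 and 7540.3 CPM in the B cell libraries and 477, 592 and 603 CPM in the dendritic cell libraries. Its difference was smaller (log2 -3.60, SE 0.12), and dendritic cells held 557 CPM of it against 8.95 CPM of Ighd. Ighg1 was discordant among the B cell libraries, at 31.7, 19.2 and 63.8 CPM in replicates 1, 2 and 3. Its log2 fold change was -6.90, -6.32 without replicate 3 and -7.68 with it as the only B cell library.

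None of the 25 tested B lineage transcription factors was higher and 22 were lower, 13 by 4-fold or more (median -2.15). Pax5, which commits and maintains B cell identity, was at 1659, 1597 and 1748 CPM in the B cell libraries and 2.39, 2.12 and 7.16 CPM in the dendritic cell libraries (log2 -8.74, SE 0.41, adjusted p = 1.96e-07). Ebf1, which acts above it, was at 364 ± 4.67 and 1.30 ± 0.935 CPM and Pou2af1 at 489.9 ± 17.9 and 2.39 ± 1.25 CPM. Ikzf3 (1187 and 23.4 CPM) and Ets1 (1522 and 33.3 CPM) were lower too. Regulators that both lineages use were measured at closer levels. Irf8 was at 446 ± 10.2 and 358 ± 51.0 CPM (log2 -0.32, SE 0.10). With B cell replicate 3 as the only B cell library it was of like size but not called (log2 -0.33, adjusted p = 0.0756). Ikzf1 was at 743 ± 11.7 and 626 ± 18.9 CPM (log2 -0.25, SE 0.05). Irf4 was lower at 329 and 155 CPM, and Tcf4 at 371 and 143 CPM. Bcl6 was not called (166 ± 15.4 and 174 ± 15.1 CPM).

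Receptor signalling genes differed in both directions. Of 32 tested, 20 were lower (62.5%), 9 by 4-fold or more, and 10 were higher (31.2%), none by 4-fold. All genes tested gave 36.9% lower and 38.4% higher. The receptor chains, the adaptor Blnk (443 and 2.60 CPM) and the kinase Blk (509 and 32.9 CPM) were among the lower. The kinase Syk (1797 and 1112 CPM), the phospholipase Plcg2 (448 and 357 CPM) and the kinase Lyn (539 and 616 CPM), which other immune receptors also use, differed by under 2-fold. Lyn, at log2 0.19, was not called without B cell replicate 2 (0.17, adjusted p = 0.0647) or without dendritic cell replicate 2 (0.16, adjusted p = 0.0562). Pik3cd, the catalytic PI 3-kinase subunit of leukocytes, was higher at 314 ± 35.5 and 711 ± 36.9 CPM. Fyn (95.8 and 103 CPM) and Malt1 (591 and 641 CPM) were not called.

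Receptors of B cell homing and survival were among the named genes. Cxcr5, the receptor that guides B cells to follicles, was at 586 ± 15.5 and 2.49 ± 1.07 CPM. The sphingosine phosphate receptors S1pr1 (497 and 6.47 CPM) and S1pr3 (129 and 0.665 CPM) were lower too. Tnfrsf13c, the receptor of the survival factor BAFF, was at 339 ± 21.3 and 4.25 ± 0.976 CPM, while its relative Tnfrsf13b was at 338 and 105 CPM. Bcl2, the survival gene, was at 263, 268 and 242 CPM in the B cell libraries and 21.2, 15.8 and 19.1 CPM in the dendritic cell libraries (log2 -3.78, SE 0.11). In the Bcl2 family as a whole 8 of 15 were higher (53.3%) and 5 lower (33.3%), where all genes tested gave 38.4% and 36.9%. The BH3-only gene Pmaip1 was higher, at 12.4, 11.8 and 11.9 CPM in the B cell libraries and 413, 423 and 470.1 CPM in the dendritic cell libraries (log2 5.18, SE 0.07). Bcl2a1a was at 0.218 and 48.5 CPM, and the near-identical Bcl2a1 copies could share reads.

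**Figure D4:**
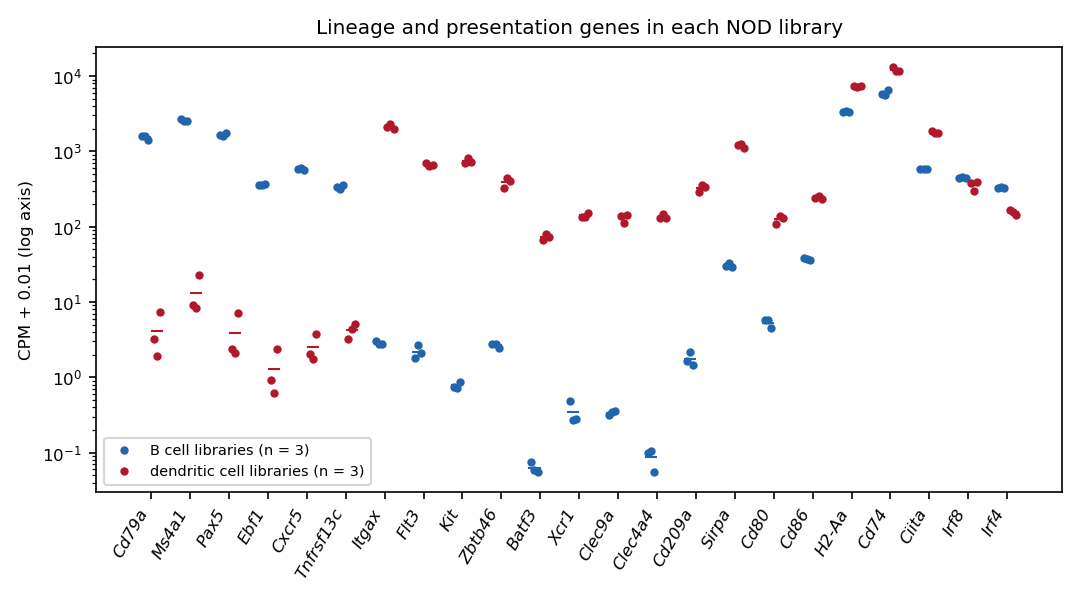
CPM with 0.01 added (log axis) of lineage and presentation genes in each NOD library, B cells in blue and dendritic cells in red, with a short line at each mean of 3. From Cd79a to Tnfrsf13c every B cell library lies above the dendritic cell libraries, from Itgax to Cd86 below them, while H2-Aa, Cd74, Ciita, Irf8 and Irf4 are high in both.

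Dendritic cell identity genes were higher: 13 of 15 in the general list, 9 by 4-fold or more, with none lower. Itgax, the integrin chain CD11c, was at 3.07, 2.76 and 2.77 CPM in the B cell libraries and 2112, 2289 and 2003 CPM in the dendritic cell libraries (log2 9.54, SE 0.10, adjusted p = 1.75e-10). Zbtb46, a transcription factor of the conventional lineage, was at 2.76, 2.78 and 2.45 CPM in the B cell libraries and 330.0, 447 and 410.2 CPM in the dendritic cell libraries (log2 7.21, SE 0.14, adjusted p = 1.5e-09). Adam23, an adhesion protein of the disintegrin family, was at 1.21, 0.816 and 1.19 CPM in the B cell libraries and 1928, 2180.1 and 1982 CPM in the dendritic cell libraries (log2 10.88, SE 0.14, adjusted p = 3.15e-10). In each the 3 dendritic cell libraries lay far above every B cell library. Haao and Ap1s3 were not called, at 60.9 and 62.9 and 91.6 and 104 CPM, and Cd83 was higher by under 2-fold (229 and 268 CPM). The peptidase gene Dpp4 was at 235 ± 5.28 and 776 ± 13.9 CPM.

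Both conventional types were represented. On the type 1 list 16 of 20 genes were higher and 4 lower, and on the type 2 list 19 of 20 were higher, all of these by 4-fold or more. Xcr1, the chemokine receptor of type 1 cells, was at 0.482, 0.264 and 0.274 CPM in the B cell libraries and 135, 136 and 152 CPM in the dendritic cell libraries (log2 8.67, SE 0.15). Batf3, the factor on which type 1 cells depend, was at 0.0657, 0.0480 and 0.0457 CPM in the B cell libraries and 66.3, 80.0 and 72.2 CPM in the dendritic cell libraries (log2 10.32, SE 0.16). Clec4a4, the DCIR2 lectin of type 2 cells, was at 0.0877, 0.0960 and 0.0457 CPM in the B cell libraries and 130.2, 146 and 130.4 CPM in the dendritic cell libraries (log2 10.73, SE 0.14). Sirpa, their CD47 receptor, was at 30.5 ± 1.97 and 1190.4 ± 82.8 CPM, and Cd4 at 5.31 ± 1.03 and 376 ± 47.0 CPM. The type 1 markers Cd24a (811 and 74.7 CPM), Btla (1064 and 237 CPM), Cd36 (171 and 65.5 CPM) and Irf8 were lower. On the plasmacytoid list 10 of 16 were higher (62.5%) and 5 lower (31.2%), where all genes tested gave 38.4% and 36.9%. Siglech, the defining receptor of plasmacytoid cells, was at 3.17 ± 0.273 and 13.2 ± 3.42 CPM.

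Of 24 dendritic cell transcription factors 17 were higher, 11 by 4-fold or more, and 5 lower. Spi1, which encodes PU.1, was at 63.3 ± 5.53 and 374 ± 26.7 CPM (log2 2.56, SE 0.08). Id2, an inhibitor of E proteins, was at 11.5 ± 1.38 and 234 ± 31.2 CPM (log2 4.36, SE 0.13), and Relb, of the noncanonical NF-kB pathway, at 67.3 ± 4.60 and 453 ± 32.2 CPM (log2 2.75, SE 0.08). Mycl was at 0.732 and 157 CPM, Runx2 at 2.04 and 113 CPM and Cebpa at 0.280 and 40.9 CPM.

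Growth factor receptors were mostly higher, with 11 of 12 higher and 9 by 4-fold or more. Flt3, the receptor of Flt3 ligand, was at 1.80, 2.64 and 2.10 CPM in the B cell libraries and 709.7, 631 and 658 CPM in the dendritic cell libraries (log2 8.26, SE 0.14). Kit, the stem cell factor receptor, was at 0.745, 0.720 and 0.869 CPM in the B cell libraries and 696, 819.7 and 718 CPM in the dendritic cell libraries (log2 9.90, SE 0.12). Csf1r was at 3.72 ± 0.569 and 310.1 ± 48.6 CPM and Csf2ra, the GM-CSF receptor chain, at 15.5 ± 1.59 and 378 ± 25.8 CPM. Tgfbr2 alone was lower, at 433 and 127 CPM. Tnfrsf11a, which encodes the RANK receptor, was at 0.0458 and 71.5 CPM.

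MHC class II genes were abundant in both cell types and mostly higher in dendritic cells. Of 22 genes tested, 17 were higher, 1 by 4-fold or more, and 4 lower (median 0.86). H2-Aa, the I-A alpha chain, was at 3365, 3478 and 3344 CPM in the B cell libraries and 7298, 7135 and 7368 CPM in the dendritic cell libraries (log2 1.10, SE 0.05, adjusted p = 1.5e-07). Cd74, the invariant chain, was at 5736, 5575 and 6503 CPM in the B cell libraries and 13108, 11814 and 11655 CPM in the dendritic cell libraries (log2 1.04, SE 0.08, adjusted p = 4.32e-06), and Ciita, the transactivator of these genes, at 587 ± 1.55 and 1790.0 ± 70.2 CPM. Ifi30, the lysosomal thiol reductase, had the largest difference at 187 ± 15.8 and 791 ± 7.90 CPM (log2 2.08, SE 0.07), under 4-fold with B cell replicate 3 as the only B cell library. H2-Ob (1217 and 812 CPM) and H2-DMb2 (643 and 423 CPM), chains of the peptide-loading modulators, were lower. For class I, 22 of 24 were higher and 1 lower (median 0.73). B2m was at 789 ± 19.4 and 2198 ± 104 CPM, Wdfy4, required for cross-presentation by type 1 cells, at 1025 ± 12.4 and 2875 ± 137 CPM, and Rab43 at 3.35 and 44.9 CPM.

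Costimulatory ligands differed in both directions. Cd80 was at 5.70, 5.76 and 4.48 CPM in the B cell libraries and 108, 139.8 and 129 CPM in the dendritic cell libraries (log2 4.56, SE 0.13) and Cd86 at 38.6, 37.7 and 36.6 CPM in the B cell libraries and 239, 254 and 230.5 CPM in the dendritic cell libraries (log2 2.68, SE 0.06), both with every dendritic cell library above every B cell library. Vsir, the VISTA checkpoint ligand, was at 18.5 ± 1.34 and 223 ± 7.93 CPM and Cd274, which encodes PD-L1, at 97.3 ± 4.46 and 348 ± 26.6 CPM. Cd40 was lower, at 187 ± 9.28 and 95.7 ± 5.33 CPM, and the ICOS ligand gene Icosl was not called (478 ± 19.3 and 523 ± 43.8 CPM). Of 19 ligands and receptors on this list 12 were higher (63.2%) and 6 lower (31.6%), where all genes tested gave 38.4% and 36.9%. On the maturation list 19 of 25 were higher, among them Fscn1, the actin bundler of mature dendritic cells (1.95 and 225 CPM). Ccr7, which guides mature cells to the T zone, was lower (140.0 and 70.8 CPM).

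Of 22 Toll-like receptor and adaptor genes 10 were higher (45.5%) and 8 lower (36.4%), near the 38.4% and 36.9% over all genes tested. Tlr11, a sensor of profilin, was at 0.219, 0.168 and 0.229 CPM in the B cell libraries and 139, 143 and 131 CPM in the dendritic cell libraries (log2 9.36, SE 0.10). Tlr5, the flagellin receptor, was at 0.0438, 0.216 and 0.0457 CPM in the B cell libraries and 106, 113 and 95.4 CPM in the dendritic cell libraries (log2 9.99, SE 0.24). Tlr4 (51.5 and 13.1 CPM), the endotoxin receptor, its relative Cd180 (486 and 297 CPM) and the negative regulator Irak3 (55.7 and 5.28 CPM) were lower. Tlr9 was not called (161 ± 3.83 and 176 ± 23.1 CPM), except without dendritic cell replicate 3 (adjusted p = 0.0346). Tlr7, Tlr8 and Tlr13 lie on the X chromosome and were not counted.

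Of C-type lectin receptors 25 of 27 tested were higher, 24 by 4-fold or more, with a median of 7.29. Cd209a, a DC-SIGN homologue whose promoter is shown above, was at 1.64, 2.16 and 1.44 CPM in the B cell libraries and 289, 359.8 and 341 CPM in the dendritic cell libraries (log2 7.56, SE 0.16). Clec9a, the receptor for exposed actin on dead cells, was at 0.307, 0.336 and 0.343 CPM in the B cell libraries and 139, 112 and 145 CPM in the dendritic cell libraries (log2 8.63, SE 0.15). Clec2d (176 and 109 CPM) and Clec2i (241 and 32.9 CPM) were lower. Several genes of this family are close copies and could share reads. Phagocytic and complement receptors were higher in 22 of 27, all by 4-fold or more, among them Havcr2, which encodes TIM-3, at 0.843 and 479 CPM, and Lrp1 at 4.72 and 159.8 CPM.

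Among cytosolic sensors and inflammasome genes 20 of 28 were higher and 5 lower. Nlrp3 was at 0.426 ± 0.0570 and 143 ± 10.3 CPM, the interleukin 1 beta gene Il1b at 1.24 ± 0.109 and 295 ± 63.2 CPM and Ifih1, the MDA5 sensor, at 4.18 ± 0.457 and 119 ± 5.21 CPM. The RIG-I gene Ddx58 was lower, at 176 and 101 CPM, and so was Nlrc3 at 71.8 and 3.03 CPM. Fc receptors differed in both directions. The activating adaptor Fcer1g was higher (1.53 and 158 CPM), the inhibitory receptor Fcgr2b lower (316 and 49.1 CPM), as was Fcer2a, the low-affinity IgE receptor of B cells (1086 and 5.58 CPM). Of 15 tested 5 were higher and 9 lower.

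**Figure D5:**
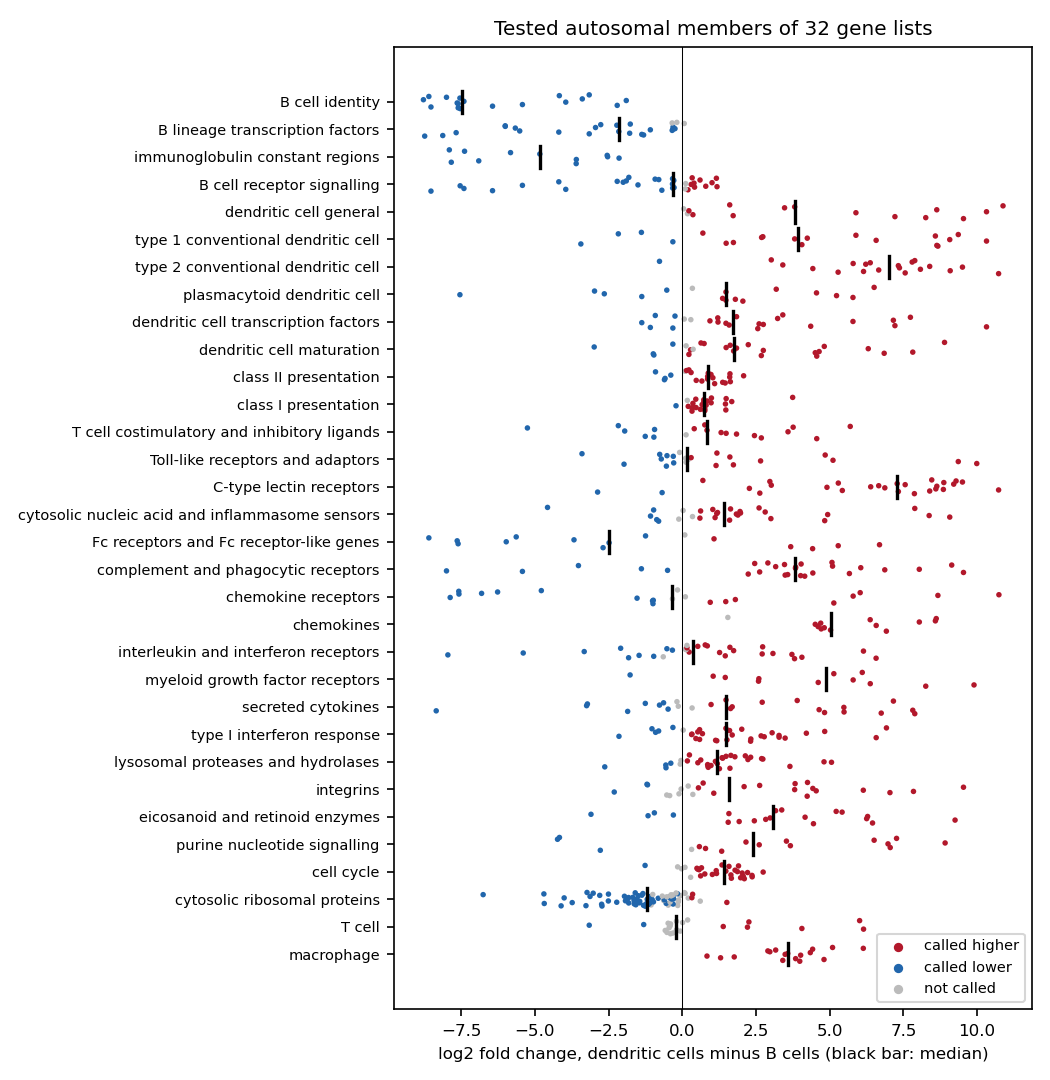
log2 fold change, dendritic cells minus B cells, of each tested autosomal member of 32 gene lists, red for genes called higher, blue for lower, grey for not called, with a black bar at the median. Medians range from -7.47 in B cell identity to 7.29 in C-type lectin receptors, while class I and class II presentation lie at 0.73 and 0.86.

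Chemokine and cytokine genes were present at unlike levels in the cell types. The 25 listed chemokines summed to 6.03 to 7.45 CPM in B cells and 285 to 333 in dendritic cells, and 12 of them were too low to test. Cxcl9 was at 0.263, 0.168 and 0.183 CPM in the B cell libraries and 76.1, 80.7 and 84.6 CPM in the dendritic cell libraries (log2 8.58, SE 0.12) and Cxcl16 at 0.159 ± 0.0343 and 64.2 ± 9.34 CPM (log2 8.61, SE 0.18). Of 25 cytokines 14 were higher and 8 lower. The chains of interleukin 12 went in opposite directions. Il12a, the p35 chain, was at 23.6, 28.1 and 28.8 CPM in the B cell libraries and 0, 0.116 and 0.116 CPM in the dendritic cell libraries (log2 -8.35, SE 0.29). Il12b, the p40 chain, had 2 counts over the B cell libraries and 324 over the dendritic cell libraries, a ratio of 279 with 95% counting limits of 76.7 to 2316. Lta, lymphotoxin alpha, was lower (37.6 and 3.96 CPM). Among chemokine receptors 8 of 21 were higher and 10 lower (38.1% and 47.6%, where all genes tested gave 38.4% and 36.9%). Ccr2 was at 7.01 and 248 CPM, Cx3cr1 at 1.40 and 78.1 CPM and Ccr6 at 209 and 104 CPM.

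Receptors of interleukins and interferons were mixed, 17 higher (56.7%) and 9 lower (30.0%) of 30, where all genes tested gave 38.4% and 36.9%. Il6ra (34.7 and 457 CPM) and its partner Il6st (87.1 and 570.3 CPM) were both higher, and Ifngr1 was at 116 ± 3.99 and 766 ± 37.4 CPM. Il9r was lower, at 328, 361 and 271 CPM in the B cell libraries and 8.57, 6.37 and 7.90 CPM in the dendritic cell libraries (log2 -5.39, SE 0.15), and so was Il5ra at 56.2 and 0.222 CPM. Of 32 type I interferon response genes 26 were higher, 13 by 4-fold or more. Ifitm3, a restriction factor against virus entry, was at 1.20 ± 0.161 and 146 ± 12.2 CPM and Oas2 at 6.87 and 66.8 CPM, while Oasl1 (9.79 and 2.21 CPM) was lower. In the NF-kB pathway 14 of 22 were higher, led by Traf1 at 71.2 ± 5.71 and 788 ± 47.4 CPM, and Rela was not called (95.3 and 92.2 CPM).

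Endolysosomal and cytoskeletal genes were mostly higher. Of 31 lysosomal genes 25 were higher (median 1.19), with Psap, the saposin precursor, at 841 ± 45.6 and 2898 ± 178 CPM and Cd68 at 8.50 ± 1.18 and 238 ± 14.2 CPM. Ctse, an endosomal protease, was lower (25.9 and 4.19 CPM). Of 16 tested proton pump genes 13 were higher, none by 4-fold. Of 36 actin and migration genes 28 were higher, 12 by 4-fold or more, such as Actn1 (12.5 and 294 CPM) and Myo1f (49.6 and 724 CPM). Capg was lower at 51.6 and 4.60 CPM. Actg1 was lower on average but discordant, at 163, 147 and 10.7 CPM in the B cell libraries and 14.3, 12.5 and 12.7 CPM in the dendritic cell libraries, so that B cell replicate 3 lay within the range of the dendritic cells. Its log2 fold change was -3.02 (adjusted p = 0.00905), -2.27 by limma-voom (adjusted p = 0.178), -3.56 without replicate 3 and 0.26 with replicate 3 as the only B cell library. Of 24 integrin genes 15 were higher, and Itgb2, the partner of CD11c, was at 167 ± 3.03 and 1031 ± 62.8 CPM.

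Lipid mediator enzymes were higher in 16 of 20 genes. Alox5ap, which feeds leukotriene synthesis, was at 2.19 ± 0.701 and 194 ± 11.6 CPM, and Ptgs2, the inducible cyclooxygenase, at 0.175, 0.0720 and 0.0229 CPM in the B cell libraries and 64.4, 32.3 and 77.4 CPM in the dendritic cell libraries (log2 9.25, SE 0.53). On the cholesterol list 19 of 31 genes were higher (61.3%) and 6 lower (19.4%), with a median of 0.62. All genes tested gave 38.4% and 36.9%. The efflux pump Abca1 was lower, at 375, 332 and 353 CPM in the B cell libraries and 12.2, 8.10 and 9.64 CPM in the dendritic cell libraries (log2 -5.15, SE 0.14), and the oxysterol enzyme Cyp27a1 higher, at 11.4, 13.2 and 14.4 CPM in the B cell libraries and 269, 282 and 261 CPM in the dendritic cell libraries (log2 4.38, SE 0.09). Scd1, the stearoyl-CoA desaturase, was among the most abundant B cell genes at 1821, 1683 and 1649 CPM in the B cell libraries and 3.67, 2.86 and 9.33 CPM in the dendritic cell libraries (log2 -8.34, SE 0.40, adjusted p = 2.26e-07). Mdh2, mitochondrial malate dehydrogenase, was at 94.2, 95.1 and 98.5 CPM in the B cell libraries and 1199, 1473 and 1294 CPM in the dendritic cell libraries (log2 3.78, SE 0.09, adjusted p = 2.79e-09). Of 81 respiratory chain genes 33 were higher (40.7%), near the 38.4% over all genes tested. Another 11 were lower (13.6%, against 36.9%) and 37 not called, with a median of 0.14. In purine signalling P2ry6 was higher (log2 8.92, SE 0.18), and the ectoenzyme genes Cd38 (446 and 24.9 CPM) and Enpp1 (57.5 and 3.07 CPM) were lower.

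Cell cycle genes were higher in 25 of 30, 7 by 4-fold or more, with a median of 1.41. Mki67, the proliferation marker, was at 41.5, 43.1 and 42.5 CPM in the B cell libraries and 170.1, 190.0 and 187 CPM in the dendritic cell libraries (log2 2.10, SE 0.06). Cdt1, a licensing factor, was lower (42.7 and 17.8 CPM). Immediate early and heat shock genes were higher in 19 of 28. Hspa1a, the inducible heat shock protein 70, was at 0.373, 0.792 and 0.869 CPM in the B cell libraries and 131, 129.6 and 179 CPM in the dendritic cell libraries (log2 7.76, SE 0.25), and its copy Hspa1b could share its reads. Nr4a1 was at 30.5 ± 4.45 and 356 ± 81.5 CPM and Fos at 100.4 ± 32.5 and 333 ± 78.9 CPM. Such genes respond to handling of cells as well as to signals, and the part of the isolation in these values was not tested.

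Zinc finger protein genes were more often lower than higher, with 205 of 341 lower and 66 higher (median -0.41). Zfp366, known as DC-SCRIPT, was at 0.263, 0.360 and 0.251 CPM in the B cell libraries and 509, 545 and 536 CPM in the dendritic cell libraries (log2 10.82, SE 0.11, adjusted p = 1.75e-10). Zfp318, needed for IgD expression in B cells, was at 423 ± 42.0 and 62.2 ± 3.66 CPM (log2 -2.77, SE 0.09). Zfp935 had 2976 counts over the B cell libraries and 0 over the dendritic cell libraries. Nupl1, a nuclear pore gene, had 8180 counts against 5, with 63.6, 62.6 and 61.0 CPM in the B cell libraries and 0.0412, 0 and 0.155 CPM in the dendritic cell libraries. A nuclear pore is common to both cell types. It is not known whether reads of both cell types were counted with the same annotation. The values of Zfp935 and Nupl1 are therefore given as counts in this table, not as an absence of RNA. The same limit applies to the 169 higher and 94 lower 4-fold genes that had 0 counts in the other cell type. The part of annotation in those calls was not tested.

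Cytosolic ribosomal protein genes were lower in 55 of 77, 16 by 4-fold or more, with a median of -1.19. The size of this difference rested on B cell replicates 1 and 2. Their summed level was 23857 and 22966 CPM in those libraries, 12659 in B cell replicate 3 and 11691 to 12306 in dendritic cells. With replicate 3 as the only B cell library 39 were lower and 17 higher, the median was -0.33, and 2 were lower and 3 higher by 4-fold or more. Without replicate 3 it was -1.49, with 22 lower by 4-fold or more. By limma-voom 7 were lower by 4-fold or more. Rps27 was at 717, 673 and 14.6 CPM in the B cell libraries and 3.87, 4.32 and 4.80 CPM in the dendritic cell libraries (log2 -6.75, SE 1.30), with -7.32 without replicate 3 and -1.79 with it as the only B cell library, and it was not called by limma-voom (log2 -5.46, adjusted p = 0.172). Mitochondrial ribosomal proteins, of which 1 of 77 was discordant, had a median of -0.05.

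Among the named genes with large differences, Ryr3, an intracellular calcium channel, was at 0.307, 0.384 and 0.503 CPM in the B cell libraries and 863, 911 and 754 CPM in the dendritic cell libraries (log2 11.04, SE 0.15, adjusted p = 3.27e-10), and Slc8a1, a sodium-calcium exchanger, at 0.131, 0.144 and 0.160 CPM in the B cell libraries and 274, 264 and 254 CPM in the dendritic cell libraries (log2 10.79, SE 0.09, adjusted p = 1.75e-10). Cadm3, a cell adhesion protein, was at 0.0438, 0.0240 and 0.0229 CPM in the B cell libraries and 109.8, 122 and 104 CPM in the dendritic cell libraries (log2 11.68, SE 0.15, adjusted p = 3.15e-10) and Trf, which encodes transferrin, at 0.0451 ± 0.0457 and 102 ± 10.9 CPM. L3mbtl4 had 1 count over the B cell libraries and 2430 over the dendritic cell libraries, a ratio of 4188 with 95% counting limits of 751 to 165504. In the B cell direction Cacna1i, a T-type calcium channel, was at 209, 201 and 224 CPM in the B cell libraries and 0.412, 0.154 and 0.736 CPM in the dendritic cell libraries (log2 -8.91, SE 0.22, adjusted p = 4.48e-09), and Bcar3, a signalling adaptor, at 201 ± 4.17 and 0.689 ± 0.466 CPM. Gad1, which makes the transmitter GABA, was at 55.4 ± 3.65 and 0.156 ± 0.168 CPM. The most abundant higher genes outside the lists were the G protein-coupled receptor kinase Grk3 (10.8 and 1582 CPM), Plbd1 (82.8 and 1574 CPM), the trafficking regulator Lyst (311 and 1547 CPM) and Rgs2 (114 and 1351 CPM). On the B cell side they were Serinc3 (1850.1 and 368 CPM) and Shisa5 (1316 and 236 CPM).

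Markers of other spleen cells were measured in the same libraries. On the T cell list 14 of 22 genes were not called, including Cd3e (6.35 ± 0.923 and 5.09 ± 1.66 CPM), and the summed level was 151 to 173 CPM in B cells and 641 to 702 in dendritic cells. Of the latter, 376 CPM was Cd4 and 84.0 CPM Cd8a, which dendritic cells also express. On the natural killer list 2 of 12 were higher and 8 lower, with a summed level of 40.9 to 54.0 CPM in B cells and 338 to 390.4 in dendritic cells. Ncr1 was at 4.34 and 0.899 CPM and Prf1 at 8.28 and 1.01 CPM, while Klrd1 (3.53 and 195 CPM) and Klrk1 (2.66 and 148 CPM) were higher in dendritic cells. All 17 tested macrophage genes were higher in dendritic cells, 14 by 4-fold or more, with a summed level of 56.1 to 63.6 CPM against 759 to 868. Adgre1, which encodes F4/80, was at 16.6, 15.8 and 20.4 CPM in the B cell libraries and 240.4, 342 and 255 CPM in the dendritic cell libraries (log2 3.99, SE 0.16), whereas C1qa (0.824 and 13.3 CPM), Cd163 (0.631 and 12.9 CPM), Siglec1 (0.183 and 1.40 CPM) and Timd4 (0.0993 and 3.52 CPM) were low, and Marco and Cd5l were too low to test. Of the monocyte list 8 of 12 were higher and 2 lower, with a summed level of 798 to 903 CPM in B cells and 677 to 961 in dendritic cells. Ly6c2 was at 0.274 and 0.717 CPM and Treml4 at 0.872 and 87.6 CPM. The neutrophil genes S100a8 (3.90 and 1.76 CPM) and S100a9 (6.06 and 2.87 CPM) were low in both. These calls lay near the threshold. Ly6c2, at log2 1.37, was not called without dendritic cell replicate 1 (1.02, adjusted p = 0.07). S100a9, at -1.08 (adjusted p = 0.0499), was not called without B cell replicate 1 (-0.55, adjusted p = 0.205) or without dendritic cell replicate 1, 2 or 3 (-1.15, -0.85 and -1.28, adjusted p = 0.102, 0.158 and 0.0633). S100a8, at -1.15 and not called (adjusted p = 0.105), was called without B cell replicate 2 (-1.55, adjusted p = 0.0255) or dendritic cell replicate 3 (-1.79, adjusted p = 0.0406). On the erythroid list 5 of 8 were higher, 4 by 4-fold or more, and 1 lower. It summed to 132 to 146 CPM in B cells and 649 to 741 in dendritic cells, of which the transferrin receptor gene Tfrc was 105 and 672 CPM and the globin gene Hbb-bs 5.51 and 9.20 CPM. Hbb-bs, at log2 0.74, was not called without B cell replicate 1 or 2 (0.75 and 0.52, adjusted p = 0.0562 and 0.0668) or without dendritic cell replicate 2 or 3 (0.69 and 0.59, adjusted p = 0.0754 and 0.0975). On the neutrophil list 2 of 9 were higher (22.2%) and 3 lower (33.3%), where all genes tested gave 38.4% and 36.9%. It summed to 11.9 to 35.5 CPM in B cells and 81.7 to 94.4 in dendritic cells, of which Mmp9, a matrix protease, was 0.868 and 62.1 CPM, and Ly6g was too low to test. The part of such cells in the results above was not tested.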

How the data were processed

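RNA of spleen B cells and dendritic cells was measured by poly(A) RNA-seq. The authors deposited raw read counts per gene symbol; the submitters' processing notes name STAR, with version 0.12.2, and GRCm38 as genome build. How reads were counted (tool, annotation, strand) is not given in the sources used here. Thus overlapping, antisense and near-identical genes may share reads. The authors' normalized table was not used.

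The 6 NOD libraries were scaled together by TMM and tested with edgeR 4.0.16 (quasi-likelihood test, R 4.3.3) after filterByExpr (minimum count 10, minimum total 15). P-values were adjusted by Benjamini-Hochberg over all genes tested, with a threshold of 0.05, and a second rule also asked for 4-fold. CPM values use the scaled library sizes. Of 28188 symbols, 27736 matched GENCODE, 360 RefSeq and 92 neither. Sex-linked, mitochondrial and unplaced genes were fitted but not counted. Counting limits cover counting error only. On simulated counts of the NOD comparison (15222 genes) the test recovered 67.2% of genes changed by 1.5-fold and 98.5% of those changed by 2-fold or by 4-fold. Of the genes called there, 7.37% had not been changed, a share above the threshold of 0.05. Only 67, 67 and 66 genes above a minimum level were changed by 1.5-fold, 2-fold and 4-fold. All others had equal means in both cell types. In the data 75.3% of autosomal genes tested were called, so these shares describe the simulated setting and not this comparison.

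Genes and lists were chosen with earlier results of these data known. The rule for named genes took, among autosomal genes called at 4-fold or more, the 15 largest fold changes in each direction (minimum mean of 20 CPM on the higher side), the 10 most abundant per cell type, the leading and opposed members of each of 60 lists, and up to 8 genes that differed between strains. Other members of a list are given as part of its description, and any gene outside the rule was chosen after its values were seen. Alternatives varied scaling (RLE, upper quartile, library totals), filter, gene set, depth, tool (DESeq2 1.42.0, limma-voom 3.58.1), samples, replicate block and replicates left out. Those with B cell replicate 3 as the only B cell library, or without the genes in which it stood apart, were chosen after seeing the data. Results for some genes are not reported here.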

Additional observations from a re-analysis of the deposited data

Results flagged for a closer look

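The contrast between dendritic cells and B cells differed between NOD and NOD.Idd2 in 7 named genes, by the test of the difference itself, edgeR's quasi-likelihood test in a fit of all 12 libraries with Benjamini-Hochberg adjustment. The values are log2 fold changes, dendritic cells minus B cells, and the difference is NOD.Idd2 minus NOD. For Tnfrsf21, a death receptor gene of the TNF receptor family, the fold change was 4.16 (SE 0.10) in NOD and 1.41 (SE 0.07) in NOD.Idd2, a difference of -2.76 (SE 0.11, adjusted p = 1.58e-07). Its level was 4.18 and 74.7 CPM in NOD B cells and dendritic cells and 18.9 and 50.6 CPM in those of NOD.Idd2. Usp2, a deubiquitinase gene, stood at -3.00 (SE 0.22) in NOD and 0.73 (SE 0.38) in NOD.Idd2, a difference of 3.72 (SE 0.39, adjusted p = 0.00305). Ubash3b, a phosphatase gene of the TULA family, stood at -0.53 (SE 0.10) in NOD and 0.78 (SE 0.09) in NOD.Idd2, a difference of 1.30 (SE 0.15, adjusted p = 0.00375), so that the direction of its contrast was opposite in the strains. Hip1, a clathrin adaptor gene, stood at -0.08 (SE 0.10) in NOD and -1.16 (SE 0.05) in NOD.Idd2, a difference of -1.09 (SE 0.13, adjusted p = 0.00511). It was not called within NOD, except without dendritic cell replicate 3, where its log2 fold change was -0.24 (adjusted p = 0.00841). The remaining 3 differences were smaller. Cd72 stood at -1.90 (SE 0.05) in NOD and -2.42 (SE 0.05) in NOD.Idd2, a difference of -0.53 (SE 0.06, adjusted p = 0.00574). The sorting receptor gene Sorl1 stood at -1.59 (SE 0.06) in NOD and -0.98 (SE 0.05) in NOD.Idd2, a difference of 0.60 (SE 0.08, adjusted p = 0.00828). The inhibitory receptor gene Fcgr2b stood at -2.69 (SE 0.07) in NOD and -2.00 (SE 0.06) in NOD.Idd2, a difference of 0.67 (SE 0.10, adjusted p = 0.0232). Both strain contrasts share no library, and the test uses all of them, including the shallow NOD.Idd2 dendritic cell replicate 3 (8663421 counts).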

How the results depend on the processing

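The 11296 autosomal genes called in NOD were between 9891 (at least 1 CPM in 3 libraries) and 12718 (no low count filter) under the other settings, and 10596 to 11414 with 1 library left out. The 3664 called at 4-fold or more were between 2821 and 5203 under the same pair of filters, and 3674 to 4031 with 1 library left out. The 11543 called in NOD.Idd2 were between 10256 and 12852, and 10852 to 12139 with 1 library left out. The 17 genes whose contrast differed between strains became 112 by DESeq2, 32 with no low count filter and 53 with the replicate block, and 7 to 19 with 1 library left out; the cause was not tested.

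Replicate numbers were shared between cell types, but same-numbered NOD libraries deviated together by correlations of only -0.0691, 0.0828 and 0.0557, and not every library correlated best with its own number. With the replicate block 10973 genes were called in NOD, 3658 at 4-fold or more, and 11212 in NOD.Idd2.

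Of 193 genes given in the text, 178 kept their direction and their side of the threshold under every alternative run. The log2 fold change of Actg1 turned from lower to 0.26 with B cell replicate 3 as the only B cell library. Bcl6, not called at 0.07, was at -0.08 with that library alone, -0.00 by library totals and -0.01 by upper quartile factors, and -0.02 to 0.12 with 1 library left out. Haao, not called at 0.05, was at -0.04, -0.02 and -0.03 under the same settings, and -0.08 to 0.14 with 1 library left out. Calls were also lost for Lyn by library totals (adjusted p = 0.0652), upper quartile factors (0.0909), no low count filter (0.0608) and with B cell replicate 3 alone (0.0721), for Cd83 (0.109) with that library alone, for S100a9 by limma-voom (0.134) and the stricter filter (0.0515), for Ly6c2 with thinned B cell libraries (0.0533), and for Hbb-bs in a fit of all 12 libraries (0.072) and with B cell replicate 3 alone (0.268). Calls were gained for Malt1 by limma-voom (0.0494), for Ap1s3 with B cell replicate 3 alone (0.00912), and for S100a8 by DESeq2 (0.0347) and with the replicate block (0.0277). Of 2280 list counts recomputed, 2249 were within 1.5 times. Depth was lower in dendritic cells, and B cell replicate 3 limits every B cell level in which it stood apart.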

Other observations

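On the plasma cell list 7 of 14 tested genes were lower in dendritic cells (50.0%), 3 were higher (21.4%) and 4 were not called. All genes tested gave 36.9% lower and 38.4% higher. Mzb1, a chaperone of the secretory pathway in marginal zone B cells, was at 194 and 0.419 CPM and Sdc1, the syndecan that marks plasma cells, at 19.6 and 0.563 CPM. Slamf7 was higher in dendritic cells, at 86.5 ± 1.07 and 487 ± 23.6 CPM (log2 2.49, SE 0.06). Of the germinal centre list, Gcsam was higher in dendritic cells, at 2.39 ± 0.684 and 45.2 ± 5.16 CPM (log2 4.24, SE 0.19).

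Of 57 tested Rab GTPase genes 33 were higher in dendritic cells (57.9%), 11 by 4-fold or more (19.3%). Another 11 were lower (19.3%), none by 4-fold. All genes tested gave 38.4% higher, 15.5% higher by 4-fold or more, and 36.9% lower. Rab32, a regulator of lysosome-related organelles, was at 4.25 ± 0.0593 and 91.3 ± 2.59 CPM (log2 4.42, SE 0.06). Of 47 proteasome genes 21 were higher (44.7%) and 8 lower (17.0%), with a median log2 fold change of 0.12. All genes tested gave 38.4% higher and 36.9% lower. In glycolysis 14 of 24 genes were higher, with the hexokinase genes Hk2 at 11.1 ± 0.361 and 104 ± 6.15 CPM and Hk3 at 0.740 ± 0.0177 and 22.0 ± 1.03 CPM. Tfrc, the receptor of iron-loaded transferrin, was at 105 ± 3.61 and 672 ± 45.4 CPM (log2 2.68, SE 0.07), and Odc1, the first enzyme of polyamine synthesis, was lower, at 110.1, 133 and 61.4 CPM in the B cell libraries and 16.3, 15.8 and 18.6 CPM in the dendritic cell libraries (log2 -2.58, SE 0.26).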
